A study of Mus musculus with 6 samples.

Results

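The genes described are 39 genes for subunits of heterotrimeric G proteins and for RGS proteins, the regulators of G protein signalling, chosen by name so as to leave out most subunits of the rod, cone and Grm6 cascades. They comprise 12 alpha, 3 beta and 9 gamma subunits and 15 RGS genes, among 19057 genes named on the array. All 39 had at least 1 probe with a single gene symbol, 87 probes in total, and each gene was represented by the probe with the highest mean. RNA was measured on single-colour Illumina bead arrays in central retina of mice of the strain rd1/rd1, in which a mutation of the rod phosphodiesterase gene Pde6b destroys rods and then cones. The groups were 3 samples at 2 months of age and 3 at 8 months, all untreated, and every sample was a pool of 3 to 6 punches of retina. All animals carried the same mutation, so no group here has intact photoreceptors. In such pooled tissue, fewer cells of a type and less RNA per cell cannot be told apart.

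A heterotrimeric G protein couples a receptor in the membrane to enzymes and channels inside the cell. The activated receptor loads the alpha subunit with GTP, and alpha and the beta-gamma pair then act separately: alpha subunits of the Gs family stimulate adenylyl cyclase, those of the Gi family inhibit it, those of the Gq family activate phospholipase C beta, and those of the G12 family act on the cytoskeleton through exchange factors for small GTPases. Beta-gamma pairs open G protein gated potassium channels and restrain calcium channels. RGS proteins end the signal by speeding GTP hydrolysis on alpha. In the retina, transducins carry the light signal in rods and cones and Go carries the glutamate signal in ON bipolar cells. Most of the subunits described here serve the many other receptors of neurons, glia, vessels and microglia.

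The finding turns on Gng4, the only one of these genes that passed the test, and on Rgs16, which had the most negative change, so the promoter windows of both are shown. Each is 300 bases around a RefSeq transcription start, build GRCm38.p6, 5′ to 3′ on the plus strand. Capitals mark TGACG, the core of the cAMP response element, searched on both strands because cAMP is an output of Gs and Gi signalling. Gng4 has 2 listed starts, with windows at chr13:13783809-13784108 and chr13:13784057-13784356, and Rgs16 has 1, at chr1:153740103-153740402.

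Gng4, first window: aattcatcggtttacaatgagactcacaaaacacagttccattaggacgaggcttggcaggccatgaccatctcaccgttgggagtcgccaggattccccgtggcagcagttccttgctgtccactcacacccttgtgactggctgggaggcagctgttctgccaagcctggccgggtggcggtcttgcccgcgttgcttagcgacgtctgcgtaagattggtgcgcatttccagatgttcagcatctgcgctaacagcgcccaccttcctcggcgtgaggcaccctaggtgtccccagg
Gng4, second window: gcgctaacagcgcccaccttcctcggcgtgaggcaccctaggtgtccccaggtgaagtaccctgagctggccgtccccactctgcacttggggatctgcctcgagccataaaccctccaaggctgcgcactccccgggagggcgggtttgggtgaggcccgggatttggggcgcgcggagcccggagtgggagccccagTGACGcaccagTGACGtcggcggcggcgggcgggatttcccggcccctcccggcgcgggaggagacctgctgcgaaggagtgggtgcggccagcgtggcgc
Rgs16: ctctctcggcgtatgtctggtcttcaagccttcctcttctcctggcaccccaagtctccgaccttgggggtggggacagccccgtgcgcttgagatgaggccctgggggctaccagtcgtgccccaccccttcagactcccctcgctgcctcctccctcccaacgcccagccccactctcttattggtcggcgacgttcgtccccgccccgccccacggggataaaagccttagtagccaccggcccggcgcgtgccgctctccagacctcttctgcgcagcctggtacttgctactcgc

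The second window of Gng4 held TGACG 2 times, and the first window and that of Rgs16 held none. Of 42 windows that matched 30 of the 39 genes by symbol, 11 (26.2%) held TGACG, against 20.8% of all 32851 windows. The full element TGACGTCA, which contains TGACG, was in 0 of the 42 windows and in 1.79% of all windows. A match describes the letters of the window and does not show that a factor binds there.

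Values were used as deposited, in log2 units, and the median of every array was 7.19, a level close to background where differences are compressed. Of the 39 genes, 34 had a probe that was brighter than the array's median on 3 or more of the 6 arrays and were tested, together with all 12046 genes that passed this filter. The retina's own markers were bright: Grm6 of ON bipolar cells lay between 12.4 and 12.5, the inhibitory vesicle transporter Slc32a1 of amacrine cells between 12.9 and 13.1, and the glutamate transporter Slc1a3 of Müller glia between 12.7 and 13.1. Of the 2 month samples, replicate 2 stood apart in markers of other tissues, with the mean of 2 haemoglobin genes at 11.996 against 10.7 to 10.8 in the others and 9.52 to 9.58 at 8 months, and the mean of 3 skeletal muscle genes at 9.46 against 7.47 and 8.42. The Y-linked gene Eif2s3y was at 7.79 and 8.27 in 2 month replicates 1 and 2 and at 7.10 to 7.18 elsewhere. The X-linked gene Xist was at 9.40 and 8.73 in the same 2 samples and at 10.48 to 11.10 elsewhere. The sex make-up of the pools thus differed between the ages, and its part in the changes was not tested. The number of animals in a pool is not given, so p-values reflect only how these pools vary, and 3 arrays per age limit the precision.

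Gng4, a gamma subunit, rose between 2 and 8 months, while no other gene of the group passed the test in either direction. In the limma fit over all 12046 genes, with p-values adjusted by Benjamini-Hochberg and a threshold of 0.05, 1 of 34 tested genes was higher and 0 were lower, and 6 (17.6%) had an unadjusted p below 0.05, against 10.4% of all tested genes. Among all tested genes 0.224% were called, 0.158% higher and 0.0664% lower. Of the 34 changes 17 were positive and 17 negative. Their median was −0.002, against 0.0005 over all tested genes, and their median absolute change was 0.069 against 0.056. The values of the ages did not overlap for 7 of the 34 (20.6%), against 15% of all tested genes: Gng4, Gna11, Gna13 and Rgs9 were higher at 8 months, and Rgs16, Gnai1 and Gnb4 were lower. A change of at least 0.25 in either direction was seen for 3 of the 34 (8.82%), against 4.7% of all tested genes.

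**Figure D1:**
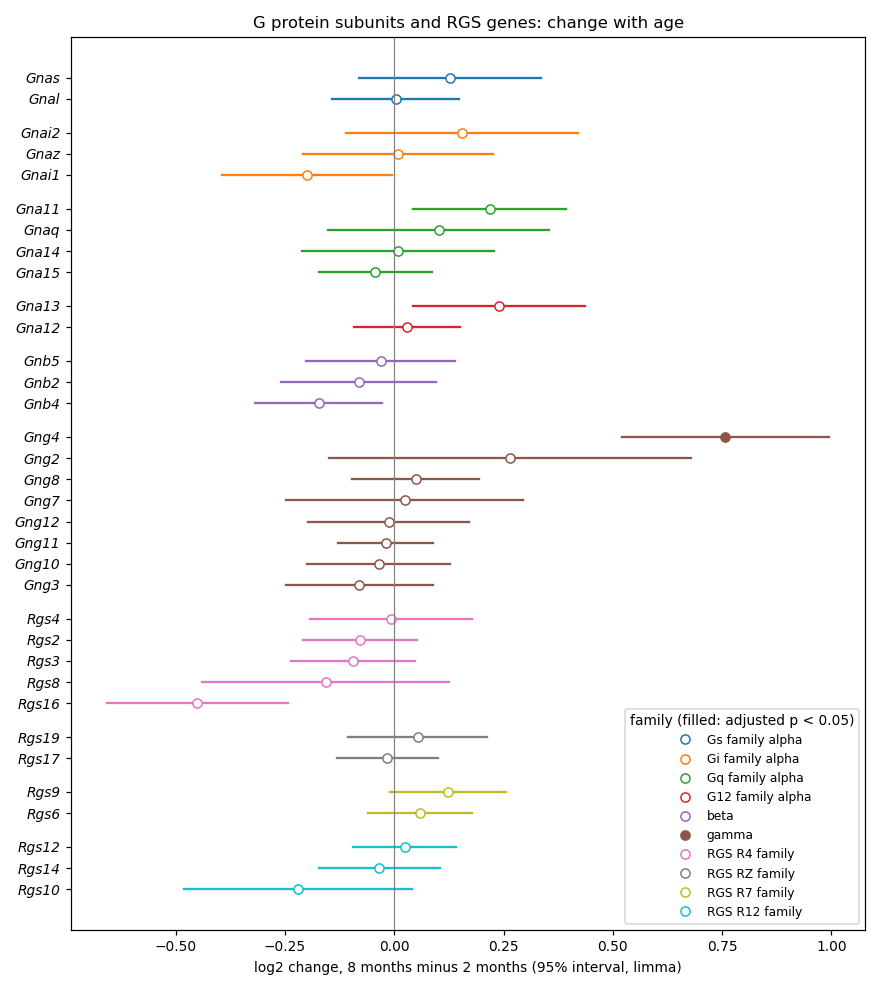
Log2 change from 2 to 8 months (horizontal axis) of the 34 tested genes, grouped and coloured by family, with the 95% interval from limma (n = 3 per age). Gng4 (0.76) is the only filled point, an adjusted p below 0.05, and Rgs16 (−0.45) lies farthest on the lower side.

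Gng4 was at 8.19, 8.19 and 8.39 in 2 month replicates 1, 2 and 3 and at 9.11, 8.80 and 9.12 in 8 month replicates 1, 2 and 3. The ages were separated by a gap of 0.42, wider than the range within either age, 0.20 and 0.32. The mean went from 8.25 ± 0.115 to 9.01 ± 0.181 (SD, n = 3), a rise of 0.76 on the log2 scale (SE 0.101, 95% interval 0.52 to 0.99), or 1.69-fold. The limma adjusted p was 0.0498, and Gng4 ranked 27 by p among the 27 genes called on the whole array, so it was the last to pass. The call was lost, at adjusted p-values from limma of 0.0504 to 0.203, without any 1 of the 2 month samples or without 8 month replicate 1 or 3, and it held without 8 month replicate 2 (adjusted p = 0.0349). The change itself stayed between 0.70 and 0.86 without any 1 sample.

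Gng4 has a single probe on the array, so no other probe measures it. Amacrine cell markers moved with it. The mean of the 8 tested markers lay at 10.4 in each 2 month sample and at 10.7 to 10.8 at 8 months. Of the 8 changes 1 was negative, and 2 genes passed the test as higher, Vip (0.83) and Tac1 (1.00). Slc32a1, another of the 8, had a change of 0.13. Cone markers moved the other way, from 9.81 to 10.3 at 2 months to 8.02 to 8.85 at 8 months over 6 tested genes. Rod, bipolar, horizontal and Müller glia markers also had a lower mean in every 8 month sample than in any 2 month sample. For bipolar cells it was 11.86 to 11.96 at 8 months against 11.97 to 12.08 at 2 months. The mean of 5 tested ganglion cell markers lay at 10.82 to 10.89 at 2 months. It was 11.06, 10.77 and 11.15 in 8 month replicates 1, 2 and 3. Their median change was 0.17, against 0.15 for the amacrine markers. The part of any of these cell types in the change of Gng4 was not tested.

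The other gamma subunits did not pass the test. Gng2, a subunit found in many neurons, was at 9.17, 8.49 and 9.08 at 2 months and at 9.19, 9.33 and 9.00 at 8 months. The ages overlapped, and the low value of 2 month replicate 2 made Gng2 the tested member with the widest spread within an age, a pooled SD of 0.284 against a median of 0.100 over the 34. Its change was 0.26 (SE 0.177, 95% interval −0.15 to 0.68, limma adjusted p = 0.704), and 0.05 without 2 month replicate 2. The second probe of Gng2 was also lowest in that sample, at 7.59 against 7.76 to 7.98 elsewhere.

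Gng3, expressed in neurons, was at 9.25, 9.02 and 9.20 at 2 months and 9.06, 9.15 and 9.03 at 8 months. These ranges overlapped, with a change of −0.08 (SE 0.0720, 95% interval −0.25 to 0.09) that ran from −0.15 without 2 month replicate 2 to −0.03 without 2 month replicate 1. Gng7, which pairs with Golf and Gs in the striatum, had a mean of 10.52 at 2 months and 10.54 at 8 months (95% interval of the change −0.25 to 0.30). Gng10 was at 10.74 and 10.71. Gng8, Gng11 and Gng12 had means within 0.5 of the array median and changes of 0.05, −0.02 and −0.01, and at such levels a change would be compressed.

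Of the alpha subunits, 11 of 12 were tested, 9 with positive and 2 with negative changes, and none passed. Gna11, which activates phospholipase C beta, was at 10.17, 10.20 and 10.28 at 2 months and at 10.28, 10.50 and 10.52 at 8 months. The ages did not overlap, but the gap was 0.0041, far less than the range within either age. The change was 0.22 (SE 0.0748, 95% interval 0.04 to 0.39, limma adjusted p = 0.369). The second probe of Gna11 had a change of 0.32, from 9.82, 9.50 and 9.75 at 2 months to 10.13, 10.02 and 9.87 at 8 months, also without overlap. Both probes therefore ordered the ages alike.

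Gnaq, the closest relative of Gna11, was at 10.09, 9.77 and 9.95 at 2 months and at 9.90, 10.22 and 9.98 at 8 months. These values overlapped, with a change of 0.10 (SE 0.108) at the brightest of its 3 probes past the filter and 0.01 and −0.04 at the others. Gna14, a further member of the Gq family, had means of 8.49 and 8.50, and Gna15, known from blood cells, was dim, at 7.28 and 7.23.

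Gna13, which acts on the cytoskeleton, was at 8.98, 8.70 and 8.91 at 2 months and at 9.18, 9.11 and 9.01 at 8 months. The ages were separated by 0.032, less than the range within either age. The change was 0.24 (SE 0.0838, 95% interval 0.04 to 0.44, limma adjusted p = 0.378), 0.16 without 2 month replicate 2, and 0.04 at a dimmer probe. Its partner in the G12 family, Gna12, had means of 7.62 and 7.65, a change of 0.03 (95% interval −0.09 to 0.15).

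Gnai1, an alpha subunit that inhibits adenylyl cyclase, was at 8.64, 8.73 and 8.72 at 2 months and at 8.58, 8.32 and 8.61 at 8 months. The 8 month values were all lower, by a gap of 0.036, and 8 month replicate 2 was the lowest. The change was −0.20 (SE 0.0832, 95% interval −0.39 to −0.004, limma adjusted p = 0.469), and −0.11 without 8 month replicate 2. Gnai2, the family member abundant in immune cells as well as neurons, had a change of 0.16 (SE 0.113) at its brightest probe and −0.05 at the other. Gnaz, which inhibits cyclase but is not a substrate of pertussis toxin, had a mean of 10.29 at 2 months and 10.30 at 8 months (95% interval of the change −0.21 to 0.23).

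Gnas encodes Gs alpha, the stimulator of adenylyl cyclase, in a locus that makes several imprinted transcripts. The brightest of its 10 probes was at 10.88, 10.57 and 10.78 at 2 months and at 10.80, 10.84 and 10.98 at 8 months. The lowest value was that of 2 month replicate 2 and the ages overlapped. The change was 0.13 (SE 0.0886, limma adjusted p = 0.716). Over the 7 probes of Gnas that passed the filter the changes ran from −0.12 to 0.23, and the annotation used does not say which transcript each probe reads. Gnal, the olfactory relative of Gs alpha, was at 7.55 at both ages.

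**Figure D2:**
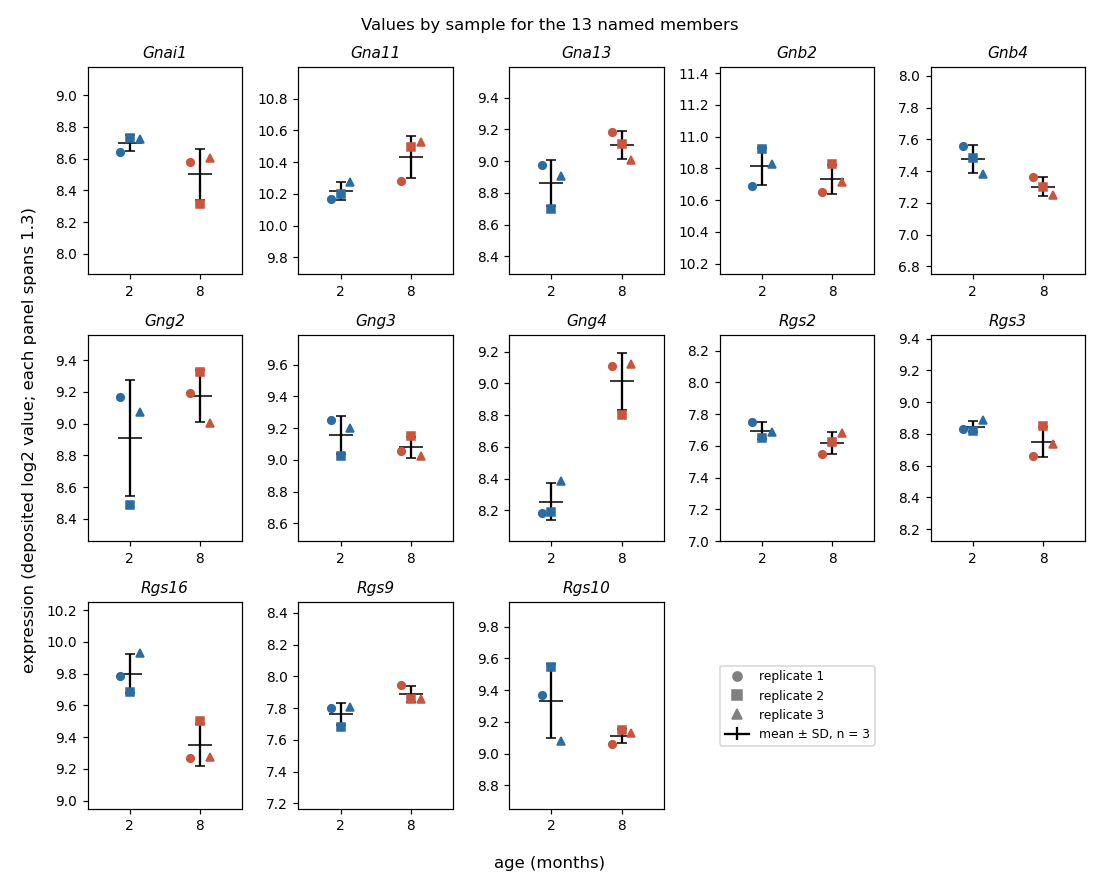
Deposited log2 values (vertical axis) by age in months for the 13 genes given in full, each panel spanning 1.3 units, with a symbol per replicate and bars for the mean ± SD (n = 3). In Gng4 and Rgs16 the ages lie apart, by 0.42 and 0.18, while in Gng2 a single 2 month sample, at 8.49, makes the spread.

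All 3 beta subunits had negative changes and none passed. Gnb4 was at 7.56, 7.48 and 7.38 at 2 months and at 7.36, 7.30 and 7.25 at 8 months. The ages did not overlap, with a gap of 0.020, and all values were within 0.5 of the array median. The change was −0.17 (SE 0.0619, 95% interval −0.32 to −0.03, limma adjusted p = 0.391). Gnb2, a broadly expressed beta subunit, was at 10.69, 10.92 and 10.82 at 2 months and at 10.65, 10.83 and 10.71 at 8 months. These values overlapped, with a change of −0.08 (SE 0.0757, 95% interval −0.26 to 0.10) that ran from −0.14 without 2 month replicate 1 to −0.03 without 2 month replicate 2. Gnb5, the beta subunit that binds RGS proteins of the R7 family in place of a gamma subunit, had means of 11.90 and 11.87 and a change of −0.03 (95% interval −0.20 to 0.14), and its other probe that passed the filter had a change of −0.04.

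Of the RGS genes, 12 of 15 were tested, 4 with positive and 8 with negative changes, and none passed. All 5 tested genes of the R4 family, RGS proteins that act on Gi and Gq alpha subunits, had negative changes at their brightest probe. Over all tested genes, 6000 of 12046 changes were negative. Rgs16 had the most negative change of the 5. Its values were 9.78, 9.68 and 9.93 at 2 months and 9.27, 9.50 and 9.28 at 8 months. The 2 month values all lay above the 8 month values, by a gap of 0.18, a little less than the range within either age, 0.24 and 0.23. The mean went from 9.80 ± 0.123 to 9.35 ± 0.133 (SD, n = 3), a change of −0.45 (SE 0.0881, 95% interval −0.66 to −0.24), with a limma adjusted p of 0.139 and rank 105 by p among all tested genes. A robust variance model with a trend on the level, in limma, put Rgs16 past the threshold (adjusted p = 0.039). Rgs16 has a single probe on the array.

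The other genes of the R4 family had smaller changes. Rgs8, an RGS protein of neurons, was at 10.57, 10.73 and 10.94 at 2 months and at 10.50, 10.81 and 10.46 at 8 months. Its change of −0.16 (SE 0.120, 95% interval −0.44 to 0.13) was smaller than its range of 0.37 within the 2 month samples. Rgs3 was at 8.83, 8.82 and 8.88 at 2 months and at 8.66, 8.85 and 8.74 at 8 months. Its change was −0.09 (SE 0.0606, limma adjusted p = 0.693). The change ran from −0.14 without 8 month replicate 2 to −0.05 without 8 month replicate 1. Other probes of Rgs3 past the filter, close to the array median, had changes from −0.02 to 0.08. Rgs2, which prefers Gq alpha, was at 7.75, 7.65 and 7.69 at 2 months and at 7.55, 7.63 and 7.68 at 8 months. Both overlapped between the ages, and the other probe of Rgs2 that passed the filter had a change of −0.06 beside −0.08 at the brightest, which was −0.04 without 8 month replicate 1. Rgs4, a brain RGS protein, was at 11.08 ± 0.101 and 11.07 ± 0.119 (SD, n = 3), a change of −0.01 (95% interval −0.19 to 0.18).

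Both R7 family genes among the 39, whose proteins are stable only with Gnb5, had positive changes. Rgs9, which in photoreceptors speeds the shutdown of transducin and whose longer form works in the striatum, was at 7.80, 7.68 and 7.81 at 2 months and at 7.95, 7.86 and 7.86 at 8 months. The ages did not overlap, with a gap of 0.047. The change was 0.12 (SE 0.0564, 95% interval −0.01 to 0.26, limma adjusted p = 0.523), and −0.07 at the dimmer probe. Rgs9bp, which anchors Rgs9 in photoreceptor membranes, was lower at every 8 month sample, at 10.45, 10.47 and 10.29 against 10.76, 10.70 and 10.64, with a change of −0.30 (SE 0.0650, limma adjusted p = 0.168). Rgs6 had a change of 0.06 (95% interval −0.06 to 0.18).

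In the R12 family, Rgs10, an RGS protein known from microglia and platelets, was at 9.37, 9.54 and 9.08 at 2 months and at 9.06, 9.15 and 9.13 at 8 months. The high values were those of 2 month replicates 1 and 2, while 2 month replicate 3 lay among the 8 month samples. The change was −0.22 (SE 0.111, 95% interval −0.48 to 0.04, limma adjusted p = 0.577), −0.35 without 2 month replicate 3 and −0.11 without 2 month replicate 2. The mean of the 7 tested microglia markers, of 10 listed, ran in the same order at 2 months, 8.16, 8.24 and 7.89, and lay at 8.04 to 8.13 at 8 months, and 2 of the 7 were within 0.5 of the array median. That order was not particular to microglia. The haemoglobin, skeletal muscle and cone marker means and Eif2s3y had it too, with the cone markers at 10.19, 10.26 and 9.81. The endothelial and pericyte marker means did not. The part of any of these in the values of Rgs10 was not tested. Rgs12 and Rgs14, which also carry a motif that binds inactive alpha subunits, had changes of 0.02 and −0.03.

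The RZ family acts on Gnaz and other Gi alpha subunits. The probes of Rgs17 differed: the brightest had a change of −0.02, with means of 8.79 and 8.78, and the other one of 0.19, with its highest value, 9.09, in 8 month replicate 3. Rgs19 lay close to the array median and had a change of 0.05.

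**Figure D3:**
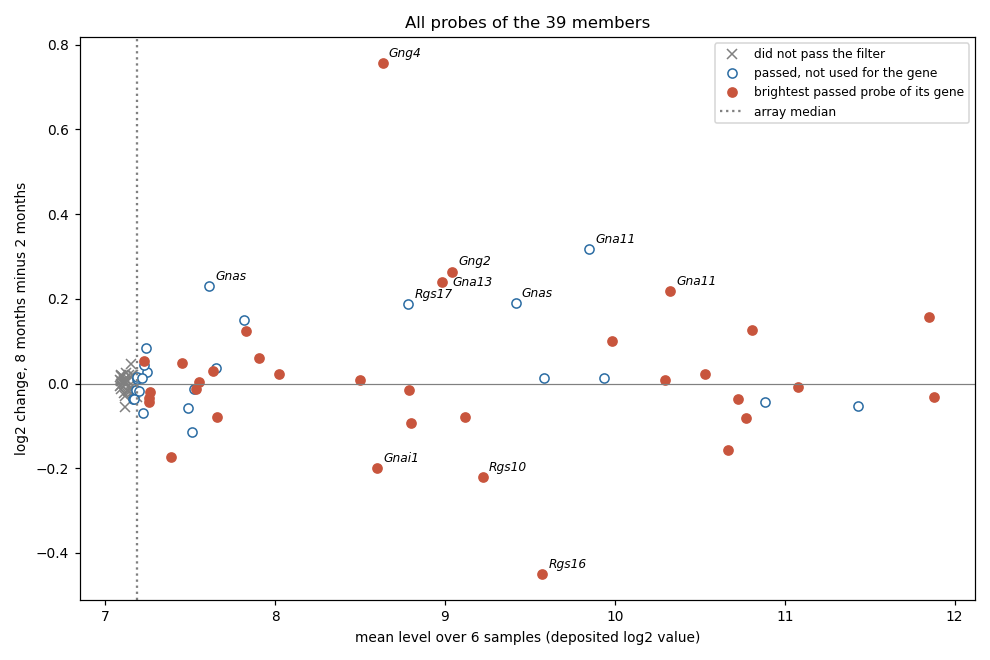
Log2 change (vertical axis) against the mean level over 6 samples (horizontal axis, deposited log2 value) for all 87 probes of the 39 genes, by whether the probe passed the filter and was used. Both Gna11 probes lie above 0.2, Gng4 and Rgs16 have 1 probe each, and the crosses gather at the array median of 7.19.

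Of the 34 tested genes 15 had more than 1 probe past the filter, and in 8 of these the probes had changes of opposite sign. The 8 were Gnai2, Gnaq, Gnas, Gng10, Gng7, Rgs17, Rgs3 and Rgs9. Of the 34, 10 had a mean level within 0.5 of the array median. The other 5 genes did not pass the filter: Gnai3, Gng5, Rgs1, Rgs18 and Rgs20 had their brightest probe between 7.02 and 7.21 in every sample, a level at which neither presence nor change can be read. Rgs1 and Rgs18 are known from blood and immune cells.

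The median within-age SD was 0.100 over the 34 genes and 0.0823 over all tested genes. Both exceeded the median absolute change, 0.069 over the 34 and 0.056 over all tested genes. The median SE of a change was 0.0739 over the 34 and 0.0654 over all tested genes. In 2 month replicate 2, the sample with the highest haemoglobin and muscle markers, 10 of the 34 genes had their lowest value (29.4%), where the same sample held the lowest value of 19.1% of all tested genes. They included Gnas, Gnaz, Gnaq, Gna13, Gng2 and Rgs9. In 8 month replicate 1, 9 of the 34 had their lowest value (26.5%, against 16.1% of all tested genes), among them Gnb2, Gnb5, Gng7, Rgs2, Rgs3 and Rgs16. The part of the other tissues in these low values was not tested directly. With the haemoglobin level as a covariate the change of Gng2 was −0.51 in place of 0.26, that of Gna13 −0.06 in place of 0.24, that of Rgs10 0.20 in place of −0.22, that of Gng4 0.62 (SE 0.216) in place of 0.76 and that of Rgs16 −0.67 in place of −0.45, none past the threshold. The haemoglobin level did not overlap between the ages, so its effect and that of age are hard to tell apart in this fit.

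**Figure D4:**
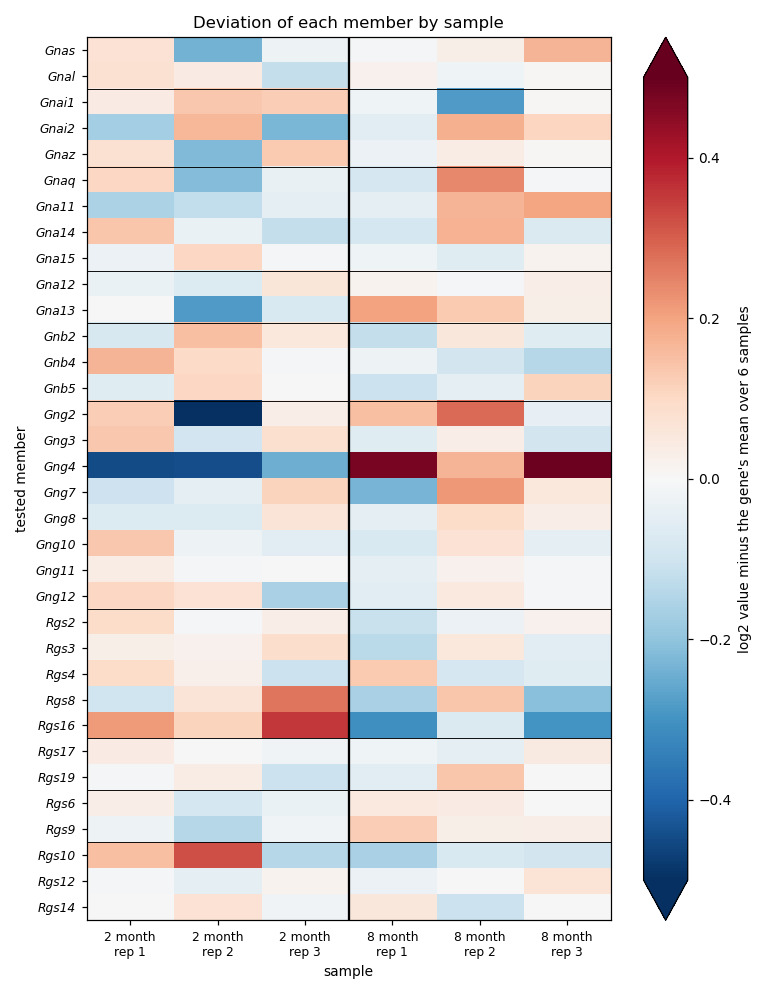
Deviation of each of the 34 tested genes (rows, grouped by family) from its mean over the 6 samples (columns), in log2 units, with the scale ending at ±0.5. Gng4 is low in all 2 month and high in all 8 month samples, Rgs16 the reverse, and most other rows vary within an age as much as between ages.

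Genes that act before or after these subunits, and subunits and RGS genes of the rod, cone and Grm6 cascades, were read from 8 lists. Of their 48 tested genes 1 passed, Gnat2, the cone transducin alpha subunit, which fell by 0.86 (SE 0.0818, limma adjusted p = 0.0169). Gnat2 is also 1 of the 6 tested cone markers given above. It belongs to the list of subunits of the rod, cone and Grm6 cascades, in which 1 of 11 tested genes was lower and 0 higher and whose median change was −0.08.

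Adenylyl cyclases, the enzymes that make cAMP, had 5 positive and 3 negative changes and a median of 0.11. Adcy3 was at 7.45, 7.44 and 7.44 at 2 months and 7.59, 7.56 and 7.56 at 8 months, without overlap (change 0.12, SE 0.0431, limma adjusted p = 0.384), and Adcy7 had a change of 0.09, both close to the array median. A further list held subunits of protein kinase A, the kinase that cAMP activates, and type 4 phosphodiesterases, which degrade cAMP. All 8 tested genes of this list had positive changes, with a median of 0.06 and none past the threshold. Positive changes made up 6046 of 12046 over all tested genes. The smallest of the 8 was 0.009, and Prkar2a and Pde4c did not pass the filter. Prkar1b, a regulatory subunit of the kinase in neurons, was at 10.20, 10.01 and 10.28 at 2 months and at 10.60, 10.63 and 10.59 at 8 months. The ages lay apart by 0.31, with a change of 0.45 (SE 0.0733, limma adjusted p = 0.0941), and Prkar1a had a change of 0.15 (SE 0.0834).

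The effectors of the Gq and G12 families had small changes. Plcb3 and Plcb4, phospholipases C beta, had changes of 0.06 and 0.02. Arhgef25, an exchange factor driven by Gq, had a change of 0.24 (SE 0.103, limma adjusted p = 0.489) and Arhgef12, driven by G12 family subunits, one of 0.03. Arrb1, a beta-arrestin that uncouples receptors, had a change of 0.20 (SE 0.100), and the receptor kinase Grk4 one of −0.03. Ric8b, a chaperone of Gs and Golf alpha, had a change of 0.24 (SE 0.116), and Gpsm2, which binds inactive Gi alpha, one of −0.07. Of the 4 genes of G protein gated potassium channels, Kcnj3 and Kcnj6 lay within 0.5 of the array median. They had changes of 0.07 and −0.06. In these lists of exchange factors, kinases and arrestins, chaperones and channels, 0 genes passed by limma and 0 had an unadjusted p below 0.05.

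**Figure D5:**
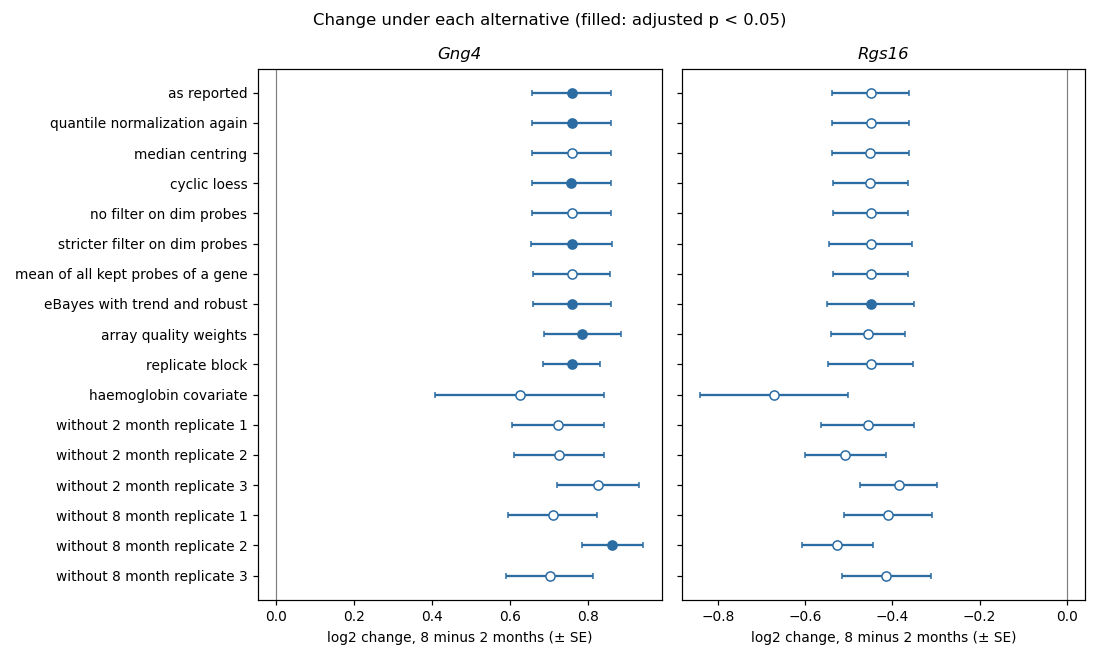
Log2 change (horizontal axis, ± SE) of Gng4 and Rgs16 as reported and under the 16 alternatives (rows), with filled points where the adjusted p was below 0.05. Gng4 stays between 0.62 and 0.86 and Rgs16 between −0.67 and −0.39, while the side of the threshold moves with the setting.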

How the data were processed

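RNA from 6 samples was labelled with biotin for Illumina arrays, per the labels' protocols. The deposited table holds 45281 probes and log2 values from 6.98 to 14.5 made by the authors. Sorted columns agree within 0.0031 at every rank, as after a quantile-type normalization, but how they were background-corrected and normalized, and with which software, is not given in the sources used here. A variance-stabilising transform cannot be told from a plain log2. Groups and replicate numbers come from the titles. The sample descriptions instead number the 2 month samples 1, 1 and 2. All 3 were counted as separate samples, as the series design has it, and the replicate block rests on the titles.

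The filter asked for a value over the array's 50th percentile on 3 or more arrays, and 22458 probes passed it. Probes were named by the platform annotation (34885 with 1 symbol, 18 with several, 10378 with none), checked by gene number against RefSeq of GRCm38.p6, which changed 0 symbols. The kept probe with the highest mean stood for a gene. Changes were fitted with limma 3.58.1 in R 4.3.3 (lmFit, eBayes, two-sided, 4 residual and 3.31 prior degrees of freedom, no covariate, Benjamini-Hochberg over 12046 genes, threshold 0.05). Intervals are 95% and use the moderated standard error.

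The genes, lists and tests were chosen with earlier results of these data known. Per-sample values are given for genes past the threshold, those changed by at least 0.25, and the 3 alpha, 2 beta, 3 gamma and 5 RGS genes with the smallest p; of each other list the 2 with the smallest p are named. Gnaq, Gnas and Rgs8, and from the lists Rgs9bp, Adcy3 and Prkar1b, were given in every sample after their values were seen. The fit was tested on simulated data with known changes. Other normalizations, filters, probe rules, variance models, a replicate block, a haemoglobin covariate and the omission of each sample were tried.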

Additional observations from a re-analysis of the deposited data

How the results depend on the processing

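As reported, 19 genes of the array were higher and 8 lower, with 1 of the 34 higher (Gng4) and 0 lower. Leaving out 1 sample gave 2 to 14 higher and 0 to 20 lower over all genes, 0 or 1 higher and 0 lower of the 34, and 8 to 12 of the 34 not overlapping in place of 7, where fewer samples make separation easier and 24% to 28.3% of all genes did not overlap. With no filter the array gave 5 higher and 2 lower, with a stricter filter 38 and 35, and with a trended robust variance model 52 and 52, which also called Rgs16, so that 1 of the 34 was lower. With the haemoglobin covariate limma called 0 higher and 0 lower (453 and 368 at an unadjusted p below 0.05), and the median change of the 34 was −0.041. Gng4 was not called, leaving 0 of the 34 higher, with median centring (adjusted p = 0.0501 by limma), no filter (0.103), the mean of a gene's probes (0.0546) or that covariate (0.652). The cause of these shifts was not tested, except that the filters change how many genes are tested (19057, 12046 or 7453). Over all 16 alternatives the limma adjusted p of Gng4 ran from 0.00047 to 0.652 and 7 kept the call. Of 13 genes given in full by rule, 8 kept their direction under each alternative in which they were tested, 15 for Gnb4 and Rgs2, which did not pass the stricter filter, and 16 for the others. The other 5 reversed only with the haemoglobin covariate: Gna13 at −0.0599, Gnb2 at 0.11, Gng2 at −0.51, Rgs9 at −0.0297 and Rgs10 at 0.20.

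With the replicate number as a block, 14 genes of the array were higher and 18 lower, and 1 of the 34 was higher (Gng4, limma adjusted p = 0.0348) and 0 lower. Deviations of samples that share a number had correlations of 0.024, 0.139 and 0.160 for numbers 1, 2 and 3. Each sample correlated best with its own number, for number 1 only weakly. Not every pair passed 0.1 and the labels give the numbers no meaning, so the samples were not treated as paired. Signal over background limits the 10 tested genes close to the array median and the 5 below the filter.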
